A study of Mus musculus with 42 samples.

Results

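Late and early dark phase were compared in the liver of female mice, labelled C57BL/6 and given as C57BL/6NHsd in the methods of the study, fed a high-fat diet (HFD), as 3 libraries of ZT 20 against 3 libraries of ZT 16. Zeitgeber time (ZT) counts hours from lights on, and lights went off at ZT 12, so both groups were collected in the dark. The members are all 6 libraries whose labels give the HFD and one of these time points, of 42 libraries in the series, which covers 2 diets and the time points from ZT 0 to ZT 24. All 6 mice received a modified AIN93G diet with 45% of its energy as fat from soybean oil for 3 weeks from the age of 3 weeks, and were killed under ketamine and xylazine. Each library is the poly(A) RNA of 1 animal, and the mice were housed in groups with food at hand, so the hour of the last meal of each animal is not known from the labels.

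The liver clock is a loop of transcription factors. BMAL1 (the product of Arntl) pairs with CLOCK or its paralogue NPAS2 and switches on the Period and Cryptochrome genes, whose proteins then silence that pair. In a coupled loop the nuclear receptors REV-ERBα and REV-ERBβ (Nr1d1, Nr1d2) repress Arntl, Clock and Npas2, which the ROR receptors activate. Clock output factors such as DBP, TEF, HLF and their rival NFIL3 carry the timing to genes of lipid, glycogen, bile acid and drug metabolism, and feeding drives insulin-dependent lipid synthesis, protein folding and ribosome production in the same cells.

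Total counts of the 6 libraries had a range of 14592481 to 19815356. The 30 hepatocyte markers took 17.3% to 18.9% of counts at ZT 16 and 17.3% to 20.7% at ZT 20, with none of them at 0 (exact permutation test, two-sided, p = 0.40; the smallest p for 3 against 3 is 0.10). In the AIN93G libraries of the same time points this list took between 0.140% and 0.256%, and those libraries were not used. Adipocyte markers took at most 0.00197% of counts and kidney markers at most 0.0000101%. The 10 Kupffer cell markers had a range of 0.0390% to 0.0690% at ZT 16 and 0.0530% to 0.0708% at ZT 20. ZT 16 replicate 1 stood apart in several respects, a share of skeletal muscle markers of 0.00615% against at most 0.00111% in the other 5 libraries, and high levels of lipogenic and cell cycle genes, described with those genes.

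Between ZT 16 and ZT 20, 4 of 12004 genes tested passed an adjusted p of 0.05 in the edgeR quasi-likelihood test, which is 0.0333% of genes, and all 4 were higher at ZT 20. They were Npas2 (mm10, chr1:39193731-39363236, plus strand), Loxl4 (chr19:42593982-42612813, minus strand), Ppard (chr17:28232700-28301474, plus strand) and Ndrg1 (chr15:66929318-66969640, minus strand). In bulk tissue, fewer cells of a type and less RNA per cell cannot be told apart. At an unadjusted p under 0.05 there were 928 genes (7.73%), 497 higher (4.14%) and 431 lower (3.59%). DESeq2 called 103 genes (0.858%), 62 higher (0.516%) and 41 lower (0.342%), the 4 genes among them. Without single libraries, edgeR called 13 genes (without ZT 16 replicate 1), 9 (ZT 16 replicate 2), 6 (ZT 16 replicate 3), 2 (ZT 20 replicate 1), 1 (ZT 20 replicate 2) and 1 (ZT 20 replicate 3).

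**Figure D1:**
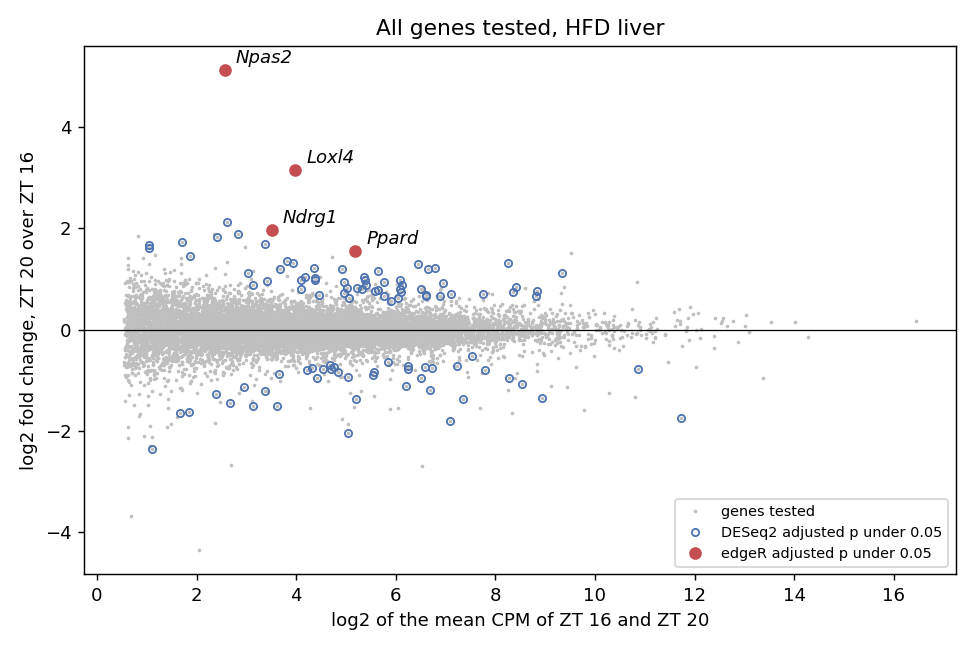
Each point is 1 of the 12004 genes tested, with the log2 of its mean CPM on the x axis and its log2 fold change of ZT 20 over ZT 16 on the y axis. The 4 genes called by edgeR (red) lie above 1.5 on the log2 scale, and the 103 genes called by DESeq2 (blue rings) lie on both sides of 0.

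Npas2, the transcription factor that can stand in for CLOCK, showed the largest fitted change of the 4. Its levels were 0.606, 0 and 0.311 CPM (reads of a gene scaled to library size) at ZT 16, from 11, 0 and 6 reads, and 9.77, 12.1 and 12.7 CPM at ZT 20, from 163, 201 and 192 reads. Every ZT 20 library was far above every ZT 16 library, and the gene was close to silent at ZT 16. The log2 fold change was 5.13 ± 0.52 (SE, n = 3 per group, edgeR adjusted p = 0.00810), a size that rests on few reads at ZT 16. The call was lost without any 1 of the ZT 20 replicates (adjusted p = 0.0580, 0.0798 and 0.1003 without replicates 1, 2 and 3). It was also lost in limma-voom (0.0541) and in the single fit of 18 HFD libraries (0.766), within a range of 1.31e-39 to 0.766 over all settings.

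Loxl4 encodes a secreted lysyl oxidase, an enzyme class that crosslinks collagen and elastin. It lay at 3.63, 3.31 and 2.69 CPM at ZT 16 and at 24.2, 25.7 and 35.6 CPM at ZT 20, so that the libraries of each time point were close together and the groups did not overlap. Loxl4 rose 8.91-fold (log2 fold change 3.16 ± 0.22, adjusted p = 0.000651). It passed without each library in turn and in every other setting except the single fit of 18 HFD libraries (0.766), within a range of 7.53e-41 to 0.766.

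Ppard encodes PPARδ, a nuclear receptor for fatty acids that activates genes of fat oxidation. It lay at 22.1, 15.8 and 17.97 CPM at ZT 16 and at 51.2, 53.1 and 58.4 CPM at ZT 20, again with no overlap. Ppard rose 2.93-fold (log2 fold change 1.55 ± 0.16, adjusted p = 0.00810), and its call was lost without any 1 of the ZT 20 replicates (0.0580, 0.0798 and 0.1003 without replicates 1, 2 and 3). It was also lost in the single fit of 18 HFD libraries (0.766), within a range of 1.50e-14 to 0.766 over all settings. Of the 27 genes of fat oxidation tested, none passed, and their median log2 fold change was 0.01, where that of all genes tested was 0.00. The 2 with the smallest p were Cyp4a31 (log2 fold change 0.56 ± 0.24) and Cyp4a14 (0.72 ± 0.31), with 0.23 and 0.38 without ZT 20 replicate 3, fatty acid ω-hydroxylases of a family of near-identical genes whose reads may be shared.

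Ndrg1, a gene induced by low oxygen and other stresses, lay at 5.51, 4.16 and 4.40 CPM at ZT 16 and at 12.8, 21.98 and 19.9 CPM at ZT 20. The ZT 20 libraries varied among themselves more than those of ZT 16, and the lowest of them was still above all of ZT 16. Ndrg1 rose 3.89-fold (log2 fold change 1.96 ± 0.24, adjusted p = 0.0330), a call lost without ZT 16 replicate 2 (0.0945) or 3 (0.0786), and without ZT 20 replicate 2 (0.287) or 3 (0.199). It was also lost in limma-voom (0.0633) and in the single fit of 18 HFD libraries (0.766), within a range of 5.92e-14 to 0.766 over all settings.

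**Figure D2:**
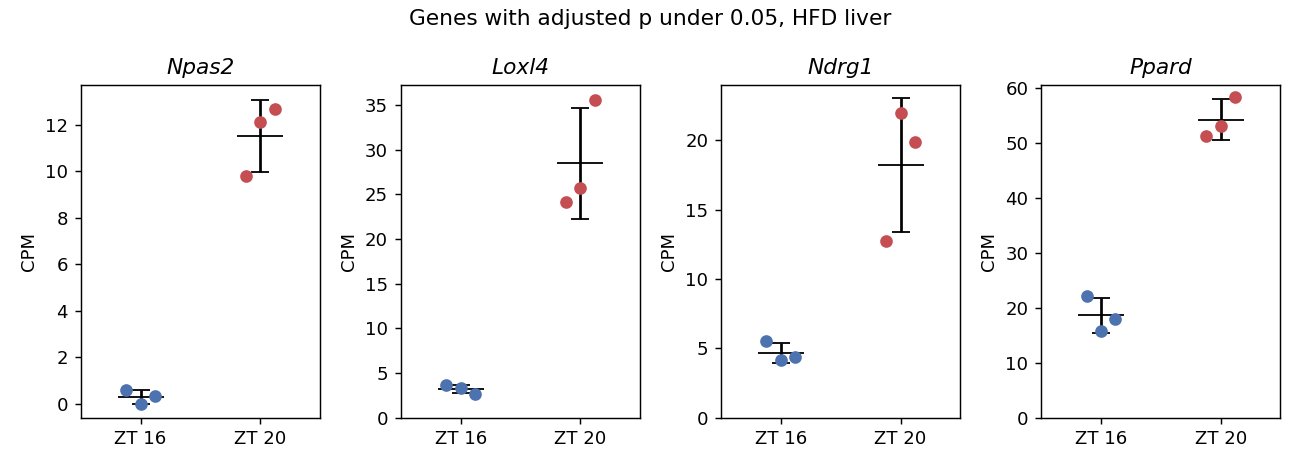
Points are the CPM of single libraries for the 4 genes with adjusted p under 0.05, with the mean and SD as black bars (n = 3 mice per time point). In each gene every ZT 20 library lies above every ZT 16 library.

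The next genes were taken by p in each direction, among protein-coding genes without overlap and with a mean count of at least 100. The 6 taken among genes higher at ZT 20 had an adjusted p of 0.0788 each in edgeR and passed in DESeq2. Clpx, a subunit of the mitochondrial ClpXP protease, was at 175.6 ± 39.2 CPM at ZT 16 and 435.3 ± 48.5 CPM at ZT 20 (SD, n = 3), a log2 fold change of 1.32 ± 0.19. Crot, the peroxisomal carnitine octanoyltransferase, was at 409.7 ± 31.3 CPM and 878.9 ± 158.2 CPM (log2 fold change 1.11 ± 0.17). Asap2, Rnf144a, Necab1 and Chic1 had log2 fold changes of 1.32 ± 0.19, 1.68 ± 0.25, 1.20 ± 0.18 and 0.99 ± 0.15, and each was without overlap between the groups. Asap2 shares its locus with Itgb1bp1 and Necab1 with antisense transcripts, and the strand setting of the counting is not known.

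No gene lower at ZT 20 passed in edgeR. The 10 genes with the smallest p in that direction, under the same limits, were Nmrk1, Nr1d2, Wee1, Rbm3, Lpin1, Tspan4, Slc37a4, Nrg4, Gstt2 and Gys2. Their adjusted p was from 0.0788 (Nmrk1) to 0.172, and DESeq2 called all 10. Nmrk1, a nicotinamide riboside kinase of NAD synthesis, lay at 57.7, 61.8 and 63.2 CPM at ZT 16 and at 35.3, 30.9 and 35.5 CPM at ZT 20, 2 tight groups apart by a log2 fold change of -0.84 ± 0.13. Lpin1, a phosphatidate phosphatase of triglyceride synthesis, lay at 167.6, 345.4 and 120.1 CPM at ZT 16 and at 61.2, 58.9 and 58.5 CPM at ZT 20. The spread of Lpin1 was thus wide at ZT 16 and narrow at ZT 20, around a log2 fold change of -1.82 ± 0.33. Slc37a4, the glucose 6-phosphate transporter of the endoplasmic reticulum, was at 283.6 ± 24.1 CPM and 161.0 ± 18.2 CPM. Rbm3, an RNA-binding protein induced by cold, was at 36.6 ± 2.7 CPM and 20.4 ± 2.6 CPM (log2 fold change -0.83 ± 0.15), while Cirbp, the other cold-inducible gene on the list, had a log2 fold change of -0.10 ± 0.20. Nrg4, a growth factor of the EGF family, had a log2 fold change of -1.51 ± 0.28, and it shares its locus with Fbxo22 on the opposite strand.

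Of the clock genes tested, the 4 activators reported here had a positive log2 fold change, and 8 of 9 repressors and 8 of 9 output genes a negative one. Among the activators Npas2 passed, the median was 0.66, and the groups were without overlap in 2, where 6.77% of all genes tested had groups without overlap and higher at ZT 20. Of the 10 repressors 9 were tested, because Bhlhe41 was below the count minimum, and none passed in edgeR. In 7 of the 9 the groups were without overlap and lower at ZT 20, against 6.18% of all genes tested, and the median log2 fold change was -0.97. The same held for 7 of the 9 output genes, with a median of -0.98 and no call in edgeR. DESeq2 called 2 activators as higher, and 4 repressors and 2 output genes as lower, where it called 0.516% of all genes tested as higher and 0.342% as lower.

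Among the activators, Arntl lay at 20.2, 23.5 and 26.7 CPM at ZT 16 and at 41.6, 42.3 and 40.2 CPM at ZT 20. All 3 ZT 20 libraries were above ZT 16 and almost equal (log2 fold change 0.83 ± 0.14, adjusted p = 0.123, DESeq2 0.00195). Clock was at 65.1 ± 14.8 CPM and 91.0 ± 24.2 CPM with overlapping groups (log2 fold change 0.49 ± 0.22, adjusted p = 0.646, and 0.25 without ZT 20 replicate 2). Rora, which encodes the activating receptor RORα, had overlapping groups and a log2 fold change of 0.36 ± 0.16, and of 0.24 without ZT 20 replicate 2. Per kilobase of gene length, Npas2 stood at a mean of 0.0638 RPKM at ZT 16 and 2.40 RPKM at ZT 20, and its partner Arntl at 3.12 and 5.499 RPKM.

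Among the repressors, Nr1d2 had the smallest p. It lay at 37.7, 86.7 and 34.6 CPM at ZT 16, where replicate 2 was far above the others, and at 10.8, 14.9 and 12.7 CPM at ZT 20. The groups did not overlap, and the log2 fold change was -2.04 ± 0.33 (adjusted p = 0.102, DESeq2 1.33e-08). Its paralogue Nr1d1 was low in all 6 libraries, with 4.07, 5.07 and 2.59 CPM at ZT 16 and 1.499, 1.20 and 1.78 CPM at ZT 20 (log2 fold change -1.37 ± 0.35, adjusted p = 0.339). Nr1d1 overlaps Thra on the opposite strand, which held more reads than Nr1d1 here.

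The 3 Period genes, whose proteins form the inhibitory complex, all had negative fitted values. Per1 was at 43.2 ± 10.9 CPM and 22.5 ± 3.0 CPM (log2 fold change -0.93 ± 0.19, adjusted p = 0.181). Per2 lay at 118.5, 120.1 and 123.4 CPM at ZT 16 and at 82.6, 67.2 and 34.3 CPM at ZT 20, so that ZT 16 was tight and ZT 20 spread widely below it (log2 fold change -0.97 ± 0.27, adjusted p = 0.369). Per3 had overlapping groups and a log2 fold change of -1.37 ± 0.35, and DESeq2 called Per1, Per2, Per3 and Nr1d2. Of the Cryptochromes, which bind the Period proteins, Cry1 had a positive fitted value and Cry2 a negative one. Cry1 lay at 55.5, 58.8 and 57.8 CPM at ZT 16 and at 75.6, 88.5 and 71.8 CPM at ZT 20, higher in all 3 ZT 20 libraries (log2 fold change 0.46 ± 0.13, adjusted p = 0.401), and Cry2 had a log2 fold change of -0.16 ± 0.12. Ciart, a repressor of the BMAL1 pair, and Bhlhe40, which competes for its DNA sites, had log2 fold changes of -1.02 ± 0.33 and -0.55 ± 0.16.

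Among the outputs, Wee1, a kinase that holds back entry into mitosis, lay at 22.5, 19.1 and 13.3 CPM at ZT 16 and at 7.20, 7.11 and 4.76 CPM at ZT 20. All of ZT 16 was above all of ZT 20 (log2 fold change -1.51 ± 0.25, adjusted p = 0.102). The activating D-box factors Dbp and Tef had log2 fold changes of -0.98 ± 0.32 and -0.71 ± 0.21, and Hlf one of -0.21 ± 0.15 with overlap, and of -0.09 without ZT 20 replicate 3. Dbp shares its locus with Sphk2 on the opposite strand, which held more reads. Nfil3, which represses the same sites, was at 44.6 ± 3.1 CPM and 58.7 ± 7.0 CPM (log2 fold change 0.41 ± 0.14, adjusted p = 0.516). Nampt, the rate-limiting enzyme of NAD salvage, was at 133.9 ± 13.9 CPM and 78.2 ± 19.7 CPM. Usp2 (a deubiquitinase), Noct (nocturnin, a phosphatase of NADP) and Tsku (the secreted protein tsukushi) had log2 fold changes of -1.02 ± 0.32, -1.31 ± 0.40 and -1.54 ± 0.49, and in Noct and Tsku ZT 20 replicate 3 was the lowest library with 10.6 and 9.91 CPM.

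**Figure D3:**
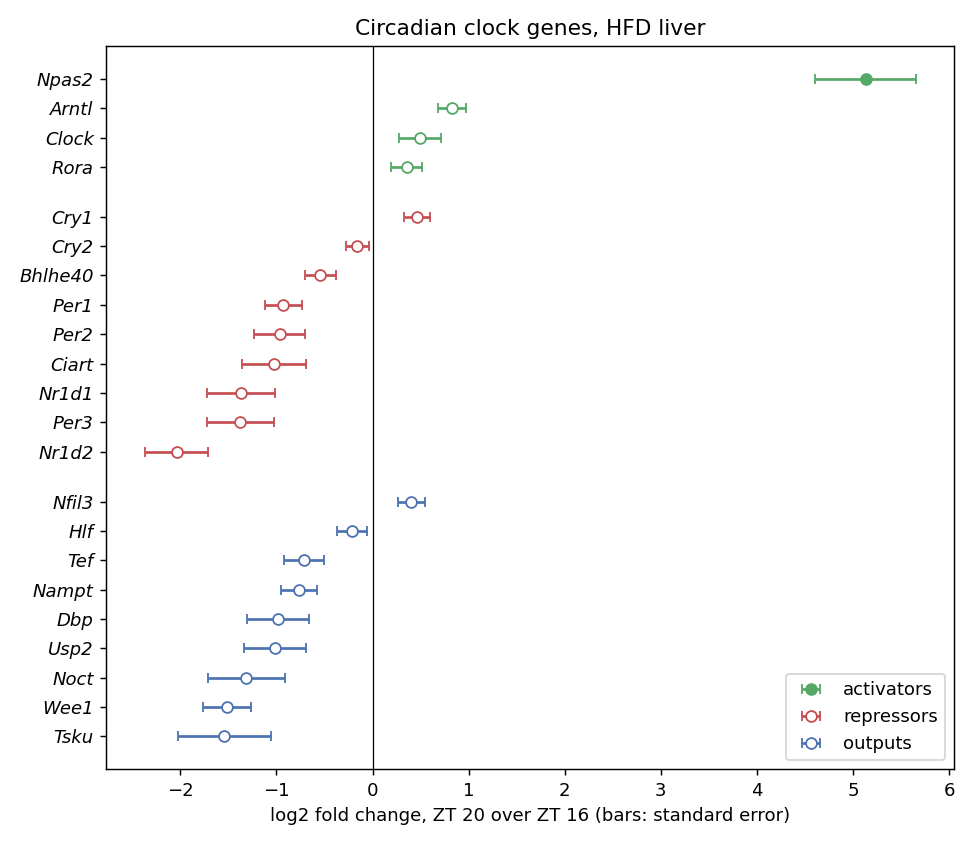
Log2 fold change of ZT 20 over ZT 16 (x axis) with its standard error for the 22 clock genes reported, grouped as activators, repressors and outputs. Only Npas2 (filled) has an adjusted p under 0.05, and Cry1 and Nfil3 lie on the positive side of groups that are otherwise negative.

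The DNA motifs through which these factors act were read from RefSeq promoters (GRCm38.p6, 250 bases before to 50 after the start site), which held 20 of the 23 clock genes in 26 promoters. The E-box CACGTG, the site of the BMAL1 pair, was found in 6 of the 26 promoters (23.1%), those of Per1, Cry1, Ciart, Bhlhe41 and Tef, and in 7.15% of all 32851 promoters. The D-box (TTATGTAA or TTACGTAA), the site of DBP, TEF, HLF and NFIL3, was found in that of Per3 and in 1.06% of all promoters. The REV-ERB and ROR element (AAN followed by TAGGTCA or TGGGTCA) was found in that of Arntl and in 0.435% of all promoters. Both strands were searched for exact matches, and none of the motifs was found in the promoters of Npas2, Loxl4 and Ppard. Ndrg1, Per2, Bhlhe40 and Wee1 had no entry among the promoters. For 27 of 44 clock and heat shock promoters checked, the bases after the start site were found near the start of an annotated transcript. The sequences are shown 5′ to 3′ on the gene's strand with the motif in capitals, because they show the 3 kinds of site in repressors described above and in the activator Arntl. For Arntl, which starts on the plus strand, the window is chr7:113207528-113207557, with the motif from base 28 of the transcript.
Arntl: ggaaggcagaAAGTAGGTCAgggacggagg
Ciart on the minus strand has 3 E-boxes in chr3:95882249-95882362, and Per1 on the plus strand and Cry1 on the minus strand have 1 each in chr11:69098765-69098806 and chr10:85185091-85185132, which start 166 and 60 bases before the start site.
Ciart: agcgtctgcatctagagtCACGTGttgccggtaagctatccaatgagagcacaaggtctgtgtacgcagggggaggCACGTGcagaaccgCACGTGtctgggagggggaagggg
Per1: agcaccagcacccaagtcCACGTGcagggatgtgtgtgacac
Cry1: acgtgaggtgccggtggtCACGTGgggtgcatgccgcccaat
Per3 on the minus strand has 2 D-boxes in chr4:151044798-151044888.
Per3: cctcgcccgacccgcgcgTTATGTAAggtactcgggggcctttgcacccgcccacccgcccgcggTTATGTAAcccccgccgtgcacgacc

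The place of both time points in the day was described in the 18 HFD libraries of ZT 0 to ZT 20, with no test. Npas2 was at 19.2 ± 2.9 CPM at ZT 0 and lay at 0, 0.0573 and 0 CPM at ZT 8, so that ZT 20 lay between the near absence of ZT 16 and the level of ZT 0. Loxl4 had the same order, with 54.1 ± 3.8 CPM at ZT 0 and 1.89 ± 0.46 CPM at ZT 8. Arntl was at 43.7 ± 4.0 CPM at ZT 0, which differs from its 41.4 ± 1.1 CPM at ZT 20 by less than the spread, and at 2.05 ± 0.48 CPM at ZT 8. Arntl at ZT 16, at 23.4 ± 3.3 CPM, was thus already well above its low, where Npas2 was not. Ppard was likewise as high at ZT 20 (54.3 ± 3.7 CPM) as at ZT 0 (54.8 ± 14.3 CPM), and lower at ZT 4 (9.45 ± 1.22 CPM) and ZT 8 (8.30 ± 1.20 CPM).

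The repressors stood at different points of their course. Nr1d2 was highest at ZT 8 with 167.0 ± 34.5 CPM, long before ZT 16, and Nr1d1 at ZT 8 (67.4 ± 13.6 CPM) and ZT 4 (65.7 ± 9.4 CPM), which differ by less than the spread. Dbp was highest at ZT 8, at 105.6 ± 10.8 CPM, and stood at 7.05 ± 2.89 CPM at ZT 16 and 3.53 ± 0.09 CPM at ZT 20. Per2 was highest at ZT 16 (120.7 ± 2.5 CPM), and Cry1 at ZT 20 (78.6 ± 8.7 CPM). At ZT 12 the libraries were not alike, with Arntl at 1.78 and 0.949 CPM in the 2 libraries labelled as dark phase and at 38.7 CPM in the one labelled as light phase. In that library Per2 was at 10.9 CPM, against 103.9 and 102.6 CPM in the others, so no mean is given for ZT 12. In a single fit of all 18 libraries edgeR called 0 genes for ZT 20 against ZT 16 (744 at an unadjusted p under 0.05). A fit of 15 without ZT 12 was not planned and was added after seeing the data. It called 13, the 4 genes and Arntl, Clpx, Nr1d2, Asap2 and Rbm3 among them.

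**Figure D4:**
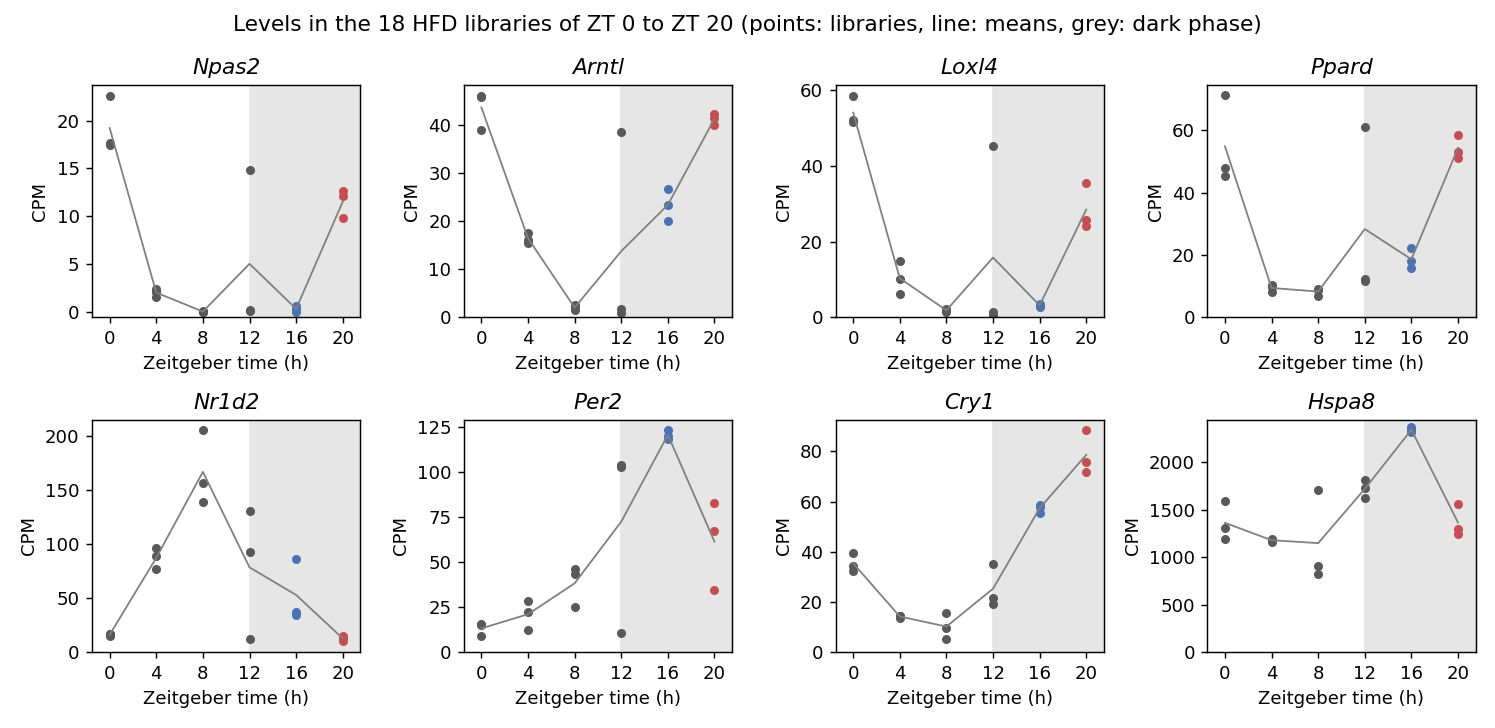
CPM (y axis) of 8 genes by Zeitgeber time (x axis) in 18 HFD libraries, with a point per library, a line through the means and the dark phase shaded. ZT 16 is blue and ZT 20 red, and at ZT 12 a single library lies apart from the other 2 in Npas2, Arntl, Loxl4, Ppard, Nr1d2 and Per2.

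In lipogenesis, the synthesis of fatty acids from sugar, all 13 genes tested had a negative log2 fold change, with a median of -0.74, and none passed. Thrsp, a lipogenic regulator, lay at 2026, 874.5 and 1046 CPM at ZT 16 and at 597.2, 361.1 and 352.1 CPM at ZT 20, without overlap (log2 fold change -1.58 ± 0.33, adjusted p = 0.181). Pklr, the liver pyruvate kinase, had overlapping groups (-0.86 ± 0.29, and -0.56 without ZT 16 replicate 1). Fasn, the fatty acid synthase, lay at 3616, 817.1 and 808.7 CPM at ZT 16 and at 1112, 549.0 and 517.0 CPM at ZT 20. ZT 16 replicate 1 was the highest library by far in Fasn, and ZT 20 replicate 1 was above the other 2 libraries of ZT 16. Without ZT 16 replicate 1 the median of the list was -0.17, with 8 of 13 genes negative. Scd1, the stearoyl-CoA desaturase, was at 10390, 2680 and 2581 CPM at ZT 16, highest in the same library. Without that library the log2 fold change of Fasn went from -1.26 to -0.16 and that of Scd1 from -0.74 to 0.23, and neither gene passed in either fit. The 5 genes of polyunsaturated fatty acid synthesis, a pathway that starts from the linoleic and linolenic acid of soybean oil, had a median log2 fold change of 0.14, and none passed.

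Of the 13 genes of glycolysis and glycogen tested, 5 were lower and 1 higher at ZT 20 without overlap, against 6.18% and 6.77% of all genes tested, with a median log2 fold change of -0.25 and no call in edgeR. Gys2, the liver glycogen synthase, lay at 196.6, 182.6 and 183.3 CPM at ZT 16 and at 128.9, 104.7 and 105.9 CPM at ZT 20 (log2 fold change -0.72 ± 0.14, adjusted p = 0.172). Slc2a2, the glucose transporter GLUT2, had a log2 fold change of -0.55 ± 0.17 without overlap, as had Pfkfb3, which makes the glycolytic activator fructose 2,6-bisphosphate (-1.13 ± 0.26). Ppp1r3c, a glycogen-targeting subunit of protein phosphatase 1, was higher at ZT 20, with 72.03, 31.5 and 95.5 CPM at ZT 16 and 145.5, 176.8 and 139.5 CPM at ZT 20 (1.22 ± 0.32, adjusted p = 0.358). In the gluconeogenesis and insulin list of 11 genes the median was -0.03, and none passed.

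Of the 14 genes of bile acids, Cyp7a1, the rate-limiting enzyme of their synthesis, lay at 157.2, 201.3 and 74.0 CPM at ZT 16 and at 77.5, 64.9 and 45.8 CPM at ZT 20, with a slight overlap (log2 fold change -1.19 ± 0.33, adjusted p = 0.369, DESeq2 0.00598). Abcb11, the pump that exports bile salts, was higher at ZT 20 without overlap (0.51 ± 0.15), as was Cyp8b1, the enzyme that makes cholic acid (0.69 ± 0.22). Of the 21 genes of sterol synthesis, Insig2, which retains the sterol sensor in the endoplasmic reticulum, was at 245.6 ± 35.6 CPM and 437.1 ± 50.4 CPM (0.84 ± 0.16, adjusted p = 0.166), and Fdps, the farnesyl diphosphate synthase, had overlapping groups (-1.21 ± 0.56, and -0.67 without ZT 16 replicate 1). The median of that list was 0.04 and rested on single libraries. It was 0.36 without ZT 16 replicate 1 and 0.28 without ZT 20 replicate 2, and between -0.11 and -0.06 without any of the others.

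Among 24 cytochrome P450 and related genes, Cyp2a5 (log2 fold change -1.34 ± 0.32) and Por, the reductase that supplies electrons to all microsomal P450 enzymes (-1.07 ± 0.27), had the smallest p. Por lay at 322.2, 683.5 and 506.4 CPM at ZT 16 and at 173.7, 275.7 and 267.5 CPM at ZT 20, and DESeq2 called both. Alas1, the first enzyme of heme synthesis, had a log2 fold change of -0.82 ± 0.26. Cyp2a5 is nearly identical to Cyp2a4, so their reads may be shared. Of 27 genes of urea and amino acid metabolism none passed, with a median of -0.03. Cbs, the first enzyme of the route from homocysteine to cysteine, lay at 349.9, 342.9 and 322.2 CPM at ZT 16 and at 495.4, 627.1 and 593.5 CPM at ZT 20 (0.77 ± 0.15, adjusted p = 0.166, DESeq2 3.01e-04).

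Heat shock genes encode protein-folding chaperones and their partners. All 16 tested had a negative log2 fold change, with a median of -0.28, where 50.4% of all genes tested were negative, and 15 of the 16 were negative without ZT 16 replicate 2 or without ZT 16 replicate 3. In 10 of the 16 the groups were without overlap and lower at ZT 20, against 6.18% of all genes tested, and none passed in edgeR. Hspa8, the constitutive HSC70, lay at 2314, 2369 and 2340 CPM at ZT 16 and at 1556, 1294 and 1241 CPM at ZT 20. The ZT 16 libraries were nearly equal and all above ZT 20 (log2 fold change -0.77 ± 0.16, adjusted p = 0.181, DESeq2 1.40e-04). Hspa1b, the inducible HSP70, was at 28.2 ± 3.6 CPM and 14.6 ± 3.4 CPM (-0.95 ± 0.19), and its reads may be shared with the near-identical Hspa1a. The co-chaperones Bag3, Dnajb1 and Dnaja1 had log2 fold changes of -0.62 ± 0.17, -0.44 ± 0.13 and -0.42 ± 0.16, each without overlap. The 2 main HSP90 genes, Hsp90aa1 (-0.28 ± 0.19) and Hsp90ab1 (-0.11 ± 0.16), had overlapping groups. Over all settings their log2 fold changes had ranges of -0.52 to -0.16 and of -0.175 to -0.005.

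In the RefSeq promoters of 13 of the 17 heat shock genes, the heat shock element (the inverted units GAA, TTC and GAA, or TTC, GAA and TTC, with 2 bases between units, on both strands), the site of the factor HSF1, was found in 5 of 18 promoters (27.8%), those of Hspd1, Hspe1, Hsph1 and Chordc1, and in 0.603% of all promoters. Hspa8 had no entry among the promoters. Hspd1 and Hspe1, the mitochondrial chaperonin HSP60 and its cofactor HSP10, are transcribed in opposite directions from a shared region and had log2 fold changes of -0.20 ± 0.14 and -0.30 ± 0.18. Over all settings these had ranges of -0.24 to -0.15 and of -0.49 to -0.15. The shared element, with overlapping matches in capitals, lies in chr1:55088041-55088094 and is shown on the strand of Hspe1 because it belongs to both promoters.
Hspe1: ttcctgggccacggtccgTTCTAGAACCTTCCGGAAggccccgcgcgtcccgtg

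Of 21 chaperones of the endoplasmic reticulum none passed, and the median log2 fold change was -0.09. It was 0.13 without ZT 16 replicate 3, with 13 positive, and -0.27 and -0.28 without ZT 16 replicates 1 and 2. Herpud1, a component of the pathway that clears misfolded proteins, was at 412.2 ± 122.3 CPM and 210.6 ± 34.1 CPM without overlap (-0.96 ± 0.22, adjusted p = 0.255), and Creld2 had overlapping groups and was highest in ZT 16 replicate 3 with 131.3 CPM, without which its log2 fold change was -0.37. In ribosome biogenesis, 30 of 31 genes had a negative log2 fold change, with a median of -0.24 (-0.38 without ZT 16 replicate 2 and -0.18 without ZT 16 replicate 3), 12 were lower at ZT 20 without overlap, against 6.18% of all genes tested, and none passed. Rrp12, a factor that matures ribosomal RNA, lay at 15.9, 10.01 and 17.3 CPM at ZT 16 and at 6.00, 7.89 and 4.76 CPM at ZT 20 (-1.21 ± 0.26, adjusted p = 0.206). Nop2, an RNA methyltransferase of the nucleolus, had a log2 fold change of -0.68 ± 0.18. The ribosomal proteins themselves, 76 genes tested, had a median of -0.12 with 66 negative, and 2 were lower without overlap, a share below that of all genes tested. Without ZT 16 replicate 3 their median was -0.04 with 49 negative, and without ZT 16 replicate 1 or ZT 20 replicate 3 it was -0.20 or -0.24 with 74 negative.

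**Figure D5:**
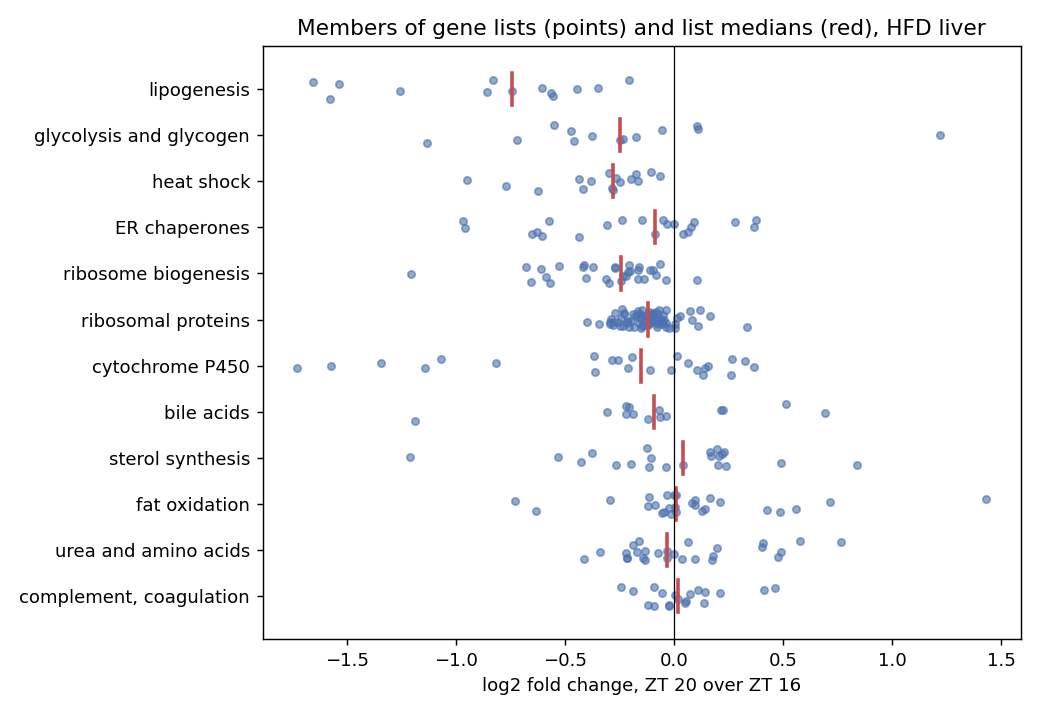
Log2 fold change of ZT 20 over ZT 16 (x axis) of each tested member of 12 gene lists, with the list median as a red bar. Lipogenesis, heat shock and ribosome biogenesis lie almost wholly below 0, and sterol synthesis, fat oxidation and complement lie on both sides of it.

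The 19 genes of complement and coagulation had a median of 0.02 and the 17 apolipoproteins of -0.12, with no call and no group without overlap in either list. The medians of fat oxidation, polyunsaturated fatty acid synthesis, gluconeogenesis and insulin, urea and amino acid, and complement and coagulation genes changed sign without at least 1 of the libraries, and that of the apolipoproteins was -0.01 without ZT 20 replicate 1. Of 23 acute phase genes 17 were positive, with a median of 0.17, and 12 without ZT 20 replicate 3, with a median of 0.01. Cebpb, a transcription factor of this response, was lower without overlap (-0.69 ± 0.20), and Lbp, which binds bacterial lipopolysaccharide, higher (0.67 ± 0.22). In the growth hormone list Cish, an inhibitor of STAT5 signalling, lay at 13.5, 17.6 and 10.98 CPM at ZT 16 and at 33.8, 31.9 and 16.6 CPM at ZT 20, with an overlap through ZT 20 replicate 3 (0.98 ± 0.27, adjusted p = 0.377). In the glucocorticoid list Gadd45g, a stress-response gene, was at 12.3 ± 2.6 CPM and 28.6 ± 9.4 CPM without overlap (1.22 ± 0.24, adjusted p = 0.172, DESeq2 8.84e-04). The lists of lipid droplet, ATF4 target, conjugation, iron, immediate early, interferon and autophagy genes had medians between -0.13 and 0.08, and no member passed. Without 1 library these medians were between -0.32 (ATF4 targets without ZT 20 replicate 3) and 0.18 (immediate early genes without ZT 16 replicate 1), and those of immediate early, interferon and autophagy genes changed sign.

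Of 18 cell cycle genes 16 had a negative log2 fold change, with a median of -0.78, and none passed. This direction rested on ZT 16 replicate 1, without which the median was 0.19 and 5 of 18 were negative. Ccnd1, the cyclin D1 gene, was at 118.5 CPM in that library and between 18.4 and 31.2 CPM in the other 5. The 13 genes of the mitochondrial genome all had a positive log2 fold change, where 49.6% of all genes tested were positive, with a median of 0.22, and took 3.49% to 3.89% of counts at ZT 16 and 3.76% to 5.19% at ZT 20 (exact permutation test, p = 0.20). Of the 10 Kupffer cell genes 9 were positive, with a median of 0.23, and the skeletal muscle gene Myh4 was at 23.2 CPM in ZT 16 replicate 1 and at most 1.12 CPM elsewhere, with Tnnc2 of the same list at 0 in all 6 libraries. The part of mitochondrial, Kupffer cell and muscle RNA in the values of the gene lists was not tested.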

How the data were processed

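Poly(A) RNA of mouse liver was sequenced, and reads were processed for the authors by a company. The submitters' processing notes name fastp, STAR, HTSeq 0.6.1, DESeq and STAR-Fusion and the build mm10, without settings, and the strand setting is not given in the sources used here. The authors deposited raw read counts per gene, without normalization, and the gene lengths used for RPKM. The groups were taken from the diet and time point of each sample's labels. Of 54532 genes, 28970 had no count in the 6 libraries, and the 12004 with a mean count of at least 25 were tested.

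R 4.3.3, edgeR 4.0.16, limma 3.58.1 and DESeq2 1.42.0 were used. The 6 libraries were fitted in edgeR with TMM factors, and ZT 20 was tested against ZT 16 by quasi-likelihood, with Benjamini-Hochberg adjustment over all genes tested and a threshold of 0.05. Adjusted p-values are from edgeR unless another tool is named. CPM was scaled by TMM over the 18 HFD libraries of ZT 0 to ZT 20. ZT 24 was left out of the levels. The tests were tested on simulated data, where DESeq2 recovered more changed genes and made more false calls than edgeR, and limma-voom fewer of both. These data were drawn with the dispersions that edgeR estimated from the 6 libraries, so they cannot rank the tools. Replicates were numbered in accession order, all pairs differed by more than sampling noise (chi-square per degree of freedom at least 30.9), and p-values measure the spread between 3 mice per group. The smallest value was that of ZT 16 replicate 2 and ZT 20 replicate 2, a pair across the time points. Pearson correlations across genes were 0.969 to 0.975 within ZT 16, 0.980 to 0.984 within ZT 20 and 0.970 to 0.984 across the time points. A floor of 3 counts per gene and library was taken as a fixed value and was not estimated from these libraries.

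Genes were named by rule: all clock genes; the 15 genes per direction with the largest change among those called, without overlap, with a mean count of at least 100 and protein-coding, filled to 10 by smallest p where under 5 passed; list members that passed, or else the 2 with the smallest p; and marker genes. Fasn, Scd1, Ppp1r3c, Slc2a2, Cyp8b1, Alas1, Bag3, Dnajb1, Dnaja1, Hsp90aa1, Hsp90ab1, Hspd1, Hspe1 Gm23935, Gm24270 and Lars2 were chosen after their values were seen. The comparison, lists and rules were chosen with earlier results of these data known, and 3 list members are not reported here. Alternatives were DESeq2, limma-voom, other scalings and filters, a single HFD fit, and leaving out each library.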

Additional observations from a re-analysis of the deposited data

How the results depend on the processing

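The count of 4 genes, 4 higher and 0 lower, was the same with library size scaling, with RLE factors and with a filter over all 42 libraries. It was 3 with at least 25 counts in each of the 6 libraries, where Npas2 was not tested. DESeq2 called 103 (62 higher, 41 lower), limma-voom 2 (Loxl4 and Ppard), and edgeR without a filter 308 (136 higher, 172 lower), in a fit where the prior degrees of freedom were infinite, against 5.9 with the filter. A single fit of 18 HFD libraries called 0, and the fit of 15 without ZT 12, added after seeing the data, called 13 (11 higher, 2 lower). Without 1 library the count was between 1 and 13, with 1 to 11 higher and 0 to 4 lower. It was 13, 9 and 6 without ZT 16 replicates 1, 2 and 3, and 2, 1 and 1 without ZT 20 replicates 1, 2 and 3, and Loxl4 was called in all 6. Of the log2 fold changes of genes chosen by the rule or named outside it, under the alternatives, 1498 stayed on their side of the threshold, 110 passed it, 16 fell short of it and 6 changed sign. The sign changes were in genes that did not pass. Without 1 library, Ddit3 was between -0.66 (without ZT 16 replicate 1) and 0.015 (without ZT 16 replicate 3), Cirbp between -0.24 (without ZT 20 replicate 3) and 0.040 (without ZT 20 replicate 1) and above 0 also without ZT 16 replicate 3, Ccnd1 between -1.62 (without ZT 16 replicate 2) and 0.031 (without ZT 16 replicate 1), Scd1 between -1.15 (without ZT 20 replicate 1) and 0.23 (without ZT 16 replicate 1), and Myh4 between -7.73 (without ZT 20 replicate 3) and 0.24 (without ZT 16 replicate 1). The cause of these differences was not tested. No paired analysis was possible because the labels number no replicates, and only 1 pair of animal codes across the time points shares its first part.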

Other observations

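Among genes outside the lists, Gm23935, annotated as a microRNA gene, lay at 6203, 2819 and 6704 CPM at ZT 16 and at 1888, 1323 and 1436 CPM at ZT 20. All of ZT 16 was above all of ZT 20, with ZT 16 replicates 1 and 3 highest (log2 fold change -1.75 ± 0.31, edgeR adjusted p = 0.123, DESeq2 2.91e-08). Lars2, the mitochondrial leucyl-tRNA synthetase, was highest in the same 2 libraries, at 2812 and 3314 CPM against 1592 CPM in ZT 16 replicate 2, and lay at 1502, 717.1 and 824.4 CPM at ZT 20 (-1.33 ± 0.33, adjusted p = 0.308). Gm24270 was at 300.3, 49.3 and 127.6 CPM and at 37.2, 15.5 and 20.5 CPM (-2.70 ± 0.57, adjusted p = 0.184). The libraries are of poly(A) RNA, and whether the reads at these loci come from the named genes was not tested.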
